A study of Homo sapiens with 4 samples.

Results

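A set of 10 genes that make, break down or sense prostaglandins were followed: PLA2G4A, PTGS1, PTGS2, PTGES, PTGES2, PTGES3, HPGD, PTGR1, PTGER2 and PTGER4. They were picked by gene symbol, with no threshold on their values, in a set drawn up with earlier results of these data known, and all 10 were found among the 25369 genes of the count table. Polyadenylated RNA had been sequenced from H226, an established human cell line labelled as lung squamous cell carcinoma. In the shControl group (2 cultures) the cells carried a doxycycline-inducible non-targeting hairpin, and in the shp63 group (2 cultures) an inducible hairpin against p63, a transcription factor of basal epithelial cells. Both groups received doxycycline at 1 µg/mL for 6 days, so the drug is shared and no culture without it was measured. The labels name 1 construct per group, so an effect of the hairpin and an effect of its target cannot be told apart. The question is which prostaglandin genes differ between the 2 hairpins.

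Prostaglandins are lipid signals made from arachidonic acid. Cytosolic phospholipase A2 (PLA2G4A) frees arachidonic acid from membranes, the cyclooxygenases PTGS1 (COX-1, usually constitutive) and PTGS2 (COX-2, usually inducible) convert it to prostaglandin H2, and PGE synthases turn that into prostaglandin E2. Prostaglandin E2 acts on cell surface receptors, of which EP2 (PTGER2) and EP4 (PTGER4) raise cyclic AMP, and it is inactivated by the dehydrogenase HPGD and then by reductases such as PTGR1. In epithelial tumours a high PTGS2 with a low HPGD is a widely described arrangement.

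The members that rose beyond 1.5-fold were PTGS2 and PTGES, and their upstream sequences are shown because these 2 genes carry the main change. The sequences are the 250 bases before the RefSeq start, 5′ to 3′ on the gene's strand (minus for both), at chr1:186680424-186680673 for PTGS2 and chr9:129753043-129753292 for PTGES (GRCh38.p14, a different build from that of the counts). Capitals mark matches to a TATA box, a cyclic AMP response element (CRE) half-site or a C/EBP site.
PTGS2: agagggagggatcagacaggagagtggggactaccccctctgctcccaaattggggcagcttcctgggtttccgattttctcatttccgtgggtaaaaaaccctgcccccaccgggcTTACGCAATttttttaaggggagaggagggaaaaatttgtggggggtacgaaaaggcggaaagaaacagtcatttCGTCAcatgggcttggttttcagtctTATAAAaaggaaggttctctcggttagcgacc
PTGES: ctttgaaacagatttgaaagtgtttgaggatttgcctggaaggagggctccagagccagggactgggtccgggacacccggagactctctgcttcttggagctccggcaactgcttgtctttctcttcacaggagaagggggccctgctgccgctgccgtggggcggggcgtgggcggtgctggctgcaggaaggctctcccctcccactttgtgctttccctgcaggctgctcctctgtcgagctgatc
The PTGS2 window held TATAAA from 32 to 27 bases before the start, CGTCA (a CRE half-site) from 58 to 54 bases before it, and TTACGCAAT (a match to the C/EBP motif TTNCGNAAT) from 133 to 125 bases before it, and these matches did not overlap. The PTGES window held none of the 7 motifs searched. The search covered both strands and also included the AP-1 motif TGANTCA, the E-box CACGTG, the NF-kB pattern GGGRNNYYCC and the p53-family half-site pattern RRRCWWGYYY. In these letters R is A or G, Y is C or T, W is A or T and N is any base. Neither window held an exact match to any of these 4 motifs. Sites that depart from the letters were not counted, so a window without a match may still hold a site of that kind. Among 35116 RefSeq windows of the same length, 10.7% held the TATA motif, 21.2% the CRE half-site and 0.632% the C/EBP motif. The AP-1 motif was in 6.57%, the E-box in 6.34%, the NF-kB site in 9.96% and the p53-family half-site in 5.57%. The windows of other members, including genes that fell, held matches too. The CRE half-site was in windows of HPGD, PTGES3 and PTGER2, and the NF-kB site in windows of HPGD, PTGER4, PTGES3 and PTGER2. One window of PTGS1 held the TATA motif and one of PTGES2 the E-box, while the C/EBP motif was in the PTGS2 window alone among the 14 windows of the 10 members. A match is a run of letters and was not tested as a binding site.

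The libraries held 51926832 to 53924761 counted reads, so 1 CPM (read counts scaled to library size with TMM factors) rests on at least 50 reads. TP63, the target of the hairpin, had 7533 and 7364 reads in shControl and 1596 and 1530 reads in shp63, which is 4.46-fold lower. Squamous epithelial markers were present, led by KRT17 and KRT5, with 10 of 11 lower in shp63 and 1 (KRT6A) higher. The 10 include TP63 itself, and 37.1% of all tested genes were called lower and 36.9% higher. SOX2 never had more than 14 reads. In bulk RNA a change in the RNA of every cell and a change in the share of cells cannot be told apart. The smallest p that exact permutation (two-sided) allows for 1 gene in 2 against 2 cultures is 0.333, so the calls rest on the spread that edgeR's quasi-likelihood model shares across genes. Errors beside CPM values are standard deviations over the 2 cultures of a group, and p-values are adjusted by the Benjamini-Hochberg method over all 14901 tested genes.

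Of the 10 genes 9 passed the filter on low counts, and PTGER2 did not. At an adjusted p under 0.05, 3 of the 9 rose (PTGS1, PTGS2 and PTGES), 5 fell (PLA2G4A, PTGES3, HPGD, PTGR1 and PTGER4) and PTGES2 was not called. That share has to be read against the background, since 74% of all tested genes were called, 36.9% higher and 37.1% lower. A stricter test asked for a change beyond 1.5-fold (edgeR glmTreat) and called 4 of the 9, of which PTGS2 and PTGES were higher and HPGD and PTGER4 lower. Of all tested genes 22.7% passed this test, 12.7% higher and 10% lower. For 8 of the 9 genes both shp63 libraries lay on the same side of both controls, as they did for 86.4% of all tested genes. The median log2 fold change of the 9 was -0.43 and their median absolute value 0.60, beside -0.01 and 0.36 over all tested genes.

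**Figure D1:**
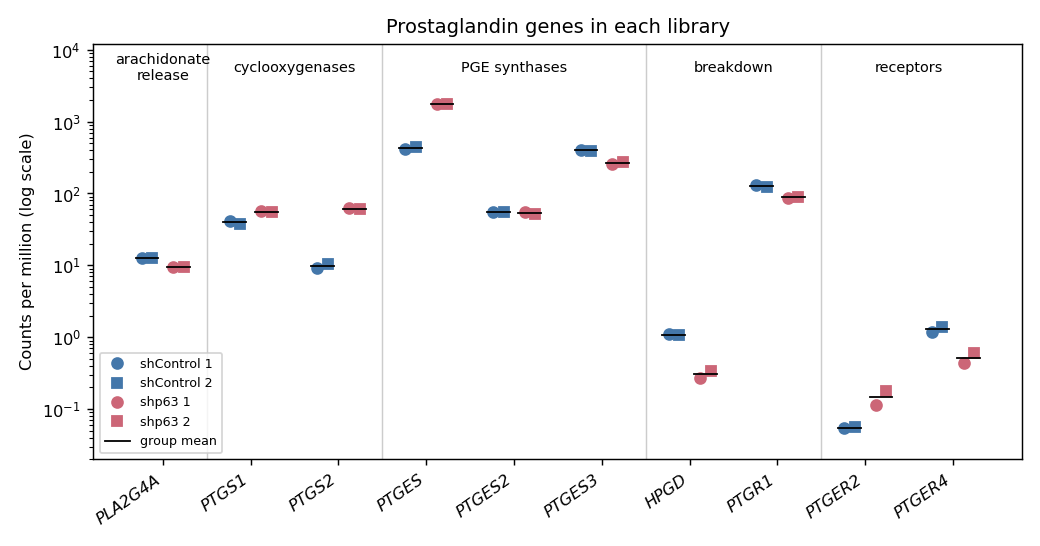
Level of each prostaglandin gene in each of the 4 libraries, in CPM on a log axis, ordered by role. Points are libraries and bars group means. PTGS2 and PTGES are higher and HPGD and PTGER4 lower in both shp63 cultures, while the PTGES2 points overlap.

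PLA2G4A, the 1 member that acts in arachidonate release, was modestly lower. This gene for the calcium-dependent phospholipase that frees arachidonic acid was at 12.73 and 12.72 CPM in shControl and at 9.46 and 9.49 CPM in shp63. Both shp63 cultures lay below both controls, a 1.34-fold fall (log2 fold change -0.43, SE 0.07, adjusted p = 7.74e-06). This did not pass the test against 1.5-fold (adjusted p = 1). PLA2G4A (chromosome 1, 186798081 to 186958113, plus strand, GRCh37) lies 148 kb from PTGS2 (186640923 to 186650054, minus strand), and the 2 neighbours moved in opposite directions.

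Both cyclooxygenase genes rose, PTGS2 far more than PTGS1. PTGS2, the inducible cyclooxygenase, had 503 and 553 reads in shControl and 3254 and 3050 in shp63, or 9.07 and 10.3 CPM against 62.5 and 60.8 CPM. The groups were well apart, with a 6.38-fold rise whose log2 value was 2.67 (SE 0.05, adjusted p = 2.10e-21) and a size exceeding that of 98.3% of tested genes. PTGS1, the constitutive enzyme (chromosome 9, 125132809 to 125157982, plus strand), was at 41.4 and 37.6 CPM in shControl and at 56.3 and 55.2 CPM in shp63. Both shp63 cultures were above both controls, a 1.41-fold rise (log2 fold change 0.50, SE 0.05, adjusted p = 1.55e-09) that did not pass the test against 1.5-fold.

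The order of the 2 cyclooxygenase transcripts turned over. Per kilobase of the canonical GENCODE transcript, PTGS1 was at 7.86 ± 0.53 and PTGS2 at 2.15 ± 0.19 CPM in shControl (SD, n = 2). In shp63 the levels per kilobase were 11.1 ± 0.163 for PTGS1 and 13.7 ± 0.27 for PTGS2. PTGS2 thus made up 19.6% and 23.3% of the summed length-corrected cyclooxygenase level in the shControl cultures and 55.3% and 55.1% in the shp63 cultures. With the length of all annotated exons in place of the canonical transcript these shares were 18.8% and 22.4% against 53.9% and 53.8%. The lncRNA gene PACERR overlaps the start of PTGS2 on the opposite strand in GENCODE, and since the strand setting of the counting is not given in the sources used here, its reads cannot be told apart from those of PTGS2.

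The 3 PGE synthase genes each behaved differently. PTGES encodes the microsomal, inducible enzyme that is known to work with COX-2 (chromosome 9, 132500610 to 132515321, minus strand). It had 23263 and 23442 reads in shControl and 90808 and 87706 reads in shp63, or 419 and 436 CPM against 1745 and 1749 CPM. The shp63 cultures were nearly identical and far above the controls, a 4.08-fold rise (log2 fold change 2.03, SE 0.04, adjusted p = 1.02e-21). By mean CPM, without a length correction, PTGES ranked 291 of the 25369 genes in shControl and 40 in shp63.

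PTGES3 encodes the cytosolic PGE synthase, which is also the HSP90 co-chaperone p23 (chromosome 12, 57057125 to 57082192, minus strand). It was at 405 and 396 CPM in shControl and at 255 and 274 CPM in shp63. Both shp63 cultures were lower, by 1.52-fold (log2 fold change -0.60, SE 0.03, adjusted p = 3.96e-13), a size at the 1.5-fold line itself, where the stricter test did not call it (adjusted p = 0.47) except with library totals alone (adjusted p = 0.00208) or without shp63 replicate 2 (adjusted p = 0.0329). PTGES3 has processed pseudogenes, and reads shared with these could have been assigned either way.

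PTGES2 encodes a second membrane-associated PGE synthase (chromosome 9, 130882972 to 130890741, minus strand, 1.61 Mb from PTGES). It was at 55.1 and 55.9 CPM in shControl and at 56.0 and 51.9 CPM in shp63. The groups overlapped, and the log2 fold change of -0.04 had a 95% interval of -0.14 to 0.05 (adjusted p = 0.41). The interval leaves out a change of the size seen in PTGES3, but it does not show that the level was the same. PTGES2 was called slightly lower with library totals alone (log2 fold change -0.13) and without shp63 replicate 1 (-0.097), and its sign turned without shp63 replicate 2 (0.012).

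Per kilobase of transcript, PTGES rose from 244 ± 6.67 to 998 ± 1.49 CPM (SD, n = 2), while PTGES3 went from 211 ± 3.48 to 139 ± 7.03. PTGES accounted for 49.1% and 50.6% of the summed PGE synthase level in shControl and for 85.5% and 85.0% in shp63. With the length of all annotated exons the shares were 63.4% and 64.7% against 91.6% and 91.2%, since all exons sum to 6084 bases for PTGES2 and 3399 for PTGES3. In shControl PTGES and PTGES3 drew similar numbers of reads, with 1.04 and 1.10 reads of PTGES for each read of PTGES3, and in shp63 that ratio was 6.85 and 6.39.

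**Figure D2:**
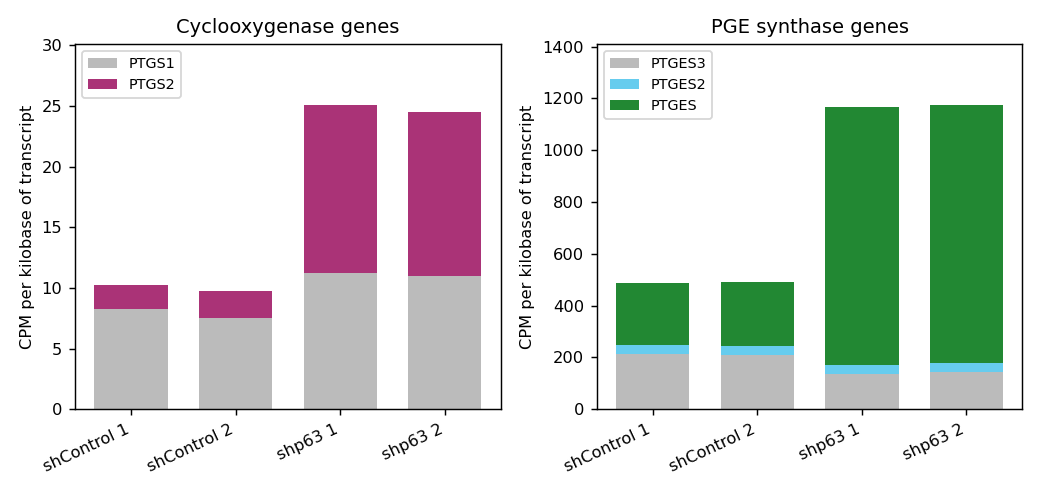
Stacked levels of the cyclooxygenase genes (left) and PGE synthase genes (right) in each library, in CPM per kilobase of canonical transcript. The PTGS2 part grows from 19.6% and 23.3% to 55.3% and 55.1% of its bar, and the PTGES part from 49.1% and 50.6% to 85.5% and 85.0%.

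The 2 members that act in prostaglandin breakdown both fell. HPGD, the dehydrogenase that inactivates prostaglandin E2 (chromosome 4, 175411326 to 175444305, minus strand), had 61 and 58 reads in shControl and 14 and 17 reads in shp63. Both shp63 cultures were far below the controls, at 0.269 and 0.339 CPM against 1.10 and 1.08 CPM, a 3.57-fold fall (log2 fold change -1.84, SE 0.26, adjusted p = 2.07e-06). Summed over cultures, 31 against 119 reads gave a ratio of 0.278, with an exact binomial 95% interval of 0.181 to 0.416 that covers counting error only. HPGD was thus a low transcript in both groups, and its fall is known less precisely than the rise of PTGES. A gene without a symbol overlaps HPGD on the opposite strand in GENCODE. The strand setting of the counting is not given, so reads of that gene could bear on the HPGD count.

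PTGR1, a reductase that acts on the keto product of HPGD and on leukotriene B4 (chromosome 9, 114312002 to 114362173, minus strand), averaged 126 ± 4.04 CPM in the controls against 88.0 ± 2.50 CPM under the p63 hairpin (SD, n = 2). Its cultures were at 129 and 123 CPM against 86.3 and 89.8 CPM and did not overlap, a 1.43-fold fall (log2 fold change -0.52, SE 0.04, adjusted p = 2.77e-11). It did not pass the test against 1.5-fold. ZNF483 overlaps PTGR1 on the opposite strand but never had more than 37 reads.

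Transcripts of the prostaglandin E2 receptors were scarce in both groups. PTGER4, encoding EP4 (chromosome 5, 40680017 to 40693837, plus strand), had 66 and 74 reads in shControl and 23 and 30 in shp63. Both shp63 cultures were below the controls, at 0.442 and 0.598 CPM against 1.19 and 1.38 CPM, a 2.46-fold fall (log2 fold change -1.30, SE 0.23, adjusted p = 3.44e-05). The call beyond 1.5-fold (adjusted p = 0.00366) was lost with DESeq2 (adjusted p = 0.366) and when shp63 replicate 1 was left out (adjusted p = 0.0684). TTC33 overlaps PTGER4 on the opposite strand and was far more abundant (44.4 and 43.8 CPM in shControl, 39.7 and 41.4 CPM in shp63). A read-through gene that contains a pseudogene copy of PTGER4 had 63 and 67 reads in shControl and 68 and 74 in shp63, so reads shared with either could bear on the PTGER4 count.

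PTGER2, encoding EP2 (chromosome 14, 52781023 to 52795316, plus strand), had 3 and 3 reads in shControl and 6 and 9 in shp63 and was too low to be tested. The summed reads, 6 and 15, gave a ratio of 2.67 with an exact binomial 95% interval of 0.980 to 8.41, so a difference was not detectable at this depth. Without the low-count filter edgeR gave PTGER2 a log2 fold change of 1.38 (SE 0.75, adjusted p = 0.117).

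**Figure D3:**
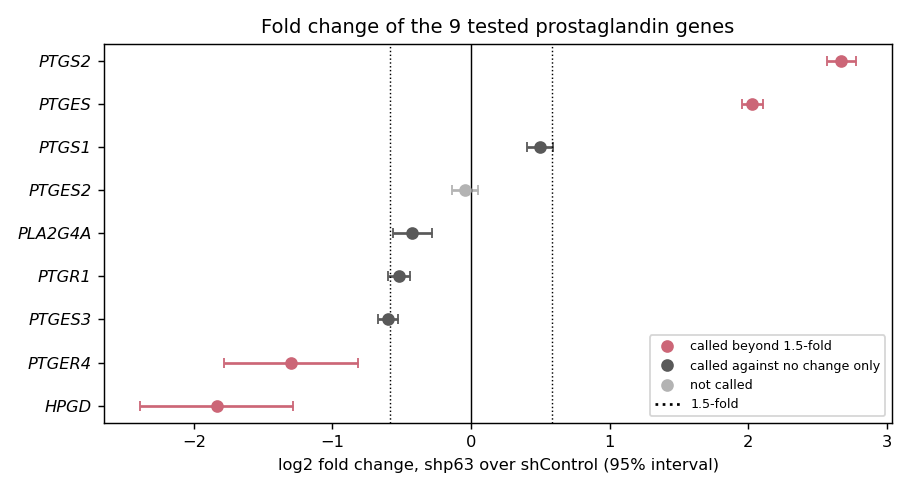
Log2 fold change (shp63 over shControl) of the 9 tested prostaglandin genes, with 95% intervals from the edgeR fit and dotted lines at 1.5-fold. PTGS2 (2.67) and PTGES (2.03) lie far to the right, HPGD (-1.84) and PTGER4 (-1.30) to the left with wider intervals, and PTGES2 spans 0.

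Per kilobase of canonical transcript the order of mean levels in shControl was PTGES, PTGES3, PTGR1, PTGES2, PTGS1, PLA2G4A, PTGS2, HPGD, PTGER4 and PTGER2. In shp63 it was PTGES, PTGES3, PTGR1, PTGES2, PTGS2, PTGS1, PLA2G4A, PTGER4, HPGD and PTGER2. The first 4 places were shared, PTGS2 moved up from place 7 to place 5, and the receptors and HPGD stayed at the bottom. HPGD at 0.103 and 0.129 CPM per kilobase and PTGER4 at 0.129 and 0.174 in shp63 did not differ beyond their spread, and other neighbours did not overlap between cultures. With all exon lengths the order in shp63 put PTGS2 and PTGS1 above PTGES2, and PTGER2 above HPGD, and the order in shControl put PTGER4 above HPGD.

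Beyond these genes, 60 others of prostaglandin and eicosanoid metabolism were listed, of which 40 were tested. Of the 40, 16 rose, 13 fell and 11 were not called. The called genes were 29 of 40, beside 74% of all tested genes, 36.9% higher and 37.1% lower. The test against 1.5-fold called 15 of the 40, 9 higher and 6 lower. Among all tested genes it called 22.7%, 12.7% higher and 10% lower. The median log2 fold change of the 40 was 0.01. The list moved both ways, so the members are described by role.

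Among other prostanoid synthases 1 of 5 tested genes rose and 4 fell, beside 36.9% higher and 37.1% lower among all tested genes. AKR1C3, a prostaglandin F synthase and steroid reductase with near-identical paralogs, fell 3.16-fold from 32.3 ± 3.53 to 10.2 ± 0.841 CPM (adjusted p = 2.56e-11), and was the 1 synthase of this list called beyond 1.5-fold. The reductase genes CBR1 and AKR1B1 fell 1.09-fold each, and FAM213B, a prostamide and prostaglandin F synthase, rose 1.15-fold. That small rise was not called by DESeq2 (adjusted p = 0.0713), without shp63 replicate 2 (adjusted p = 0.122) or with library totals alone (adjusted p = 0.138). The fifth tested gene, PTGIS for prostacyclin synthase, had 26 and 18 reads in shControl and 11 and 9 in shp63 (adjusted p = 0.0182). The prostaglandin D synthase genes PTGDS and HPGDS had 1 read or none in each library.

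The other prostanoid receptor genes had very few reads. Of 7 genes 6 were not tested, each with 10 reads or fewer in every library, among them PTGER1 (2 and 3 against 5 and 5 reads), PTGER3 (2 and 0 against 0 and 0) and PTGFR (2 and 1 against 10 and 7). The thromboxane receptor gene TBXA2R, the 1 tested, had 12 and 6 reads in shControl and 10 and 10 in shp63 (adjusted p = 0.652).

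Genes of prostaglandin transport divided. SLCO2A1 encodes the transporter that takes prostaglandins up for breakdown. It had 6 and 10 reads in shControl and 79 and 63 in shp63, with no overlap and a 9.35-fold rise (adjusted p = 3.46e-09). It lies below the 1 CPM required for naming and was named after its values were seen. ABCC4, an efflux pump that exports prostaglandin E2, fell 2.59-fold from 3.25 ± 0.253 to 1.25 ± 0.272 CPM (adjusted p = 1.00e-07). Of the reductase genes, CBR3 fell 2.09-fold and PTGR2, a further reductase of prostaglandin breakdown products, went from 28.2 ± 0.173 to 31.9 ± 1.15 CPM (adjusted p = 0.0013). The PTGR2 rise was not called with library totals alone (adjusted p = 0.0734).

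Of 17 tested genes of arachidonate release and recycling beside PLA2G4A, 9 rose, 4 fell and 4 were not called. Among all tested genes 74% were called, 36.9% higher and 37.1% lower. PLA2G10, a secreted phospholipase, rose 3.17-fold from 0.770 ± 0.0427 to 2.45 ± 0.0193 CPM, and MGLL, the monoacylglycerol lipase that yields arachidonic acid from an endocannabinoid, rose 2.10-fold from 87.7 ± 0.987 to 184 ± 3.36 CPM (adjusted p = 5.69e-18). PLA2G15, a lysosomal phospholipase, rose 1.86-fold. PLA2G4C, a relative of PLA2G4A named after its values were seen, had 4 and 12 reads in shControl and 61 and 67 in shp63. ANXA1 encodes annexin A1, long known as an inhibitor of phospholipase A2. It fell 3.18-fold from 191 ± 7.70 to 60.1 ± 2.37 CPM (adjusted p = 4.35e-20). PLA2G6 and ACSL4, which activates arachidonate for re-esterification, fell 1.52-fold and 1.19-fold.

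In the lipoxygenase and leukotriene branch 3 of 10 tested genes rose, 3 fell and 4 were not called. The shares among all tested genes were 36.9% higher and 37.1% lower. ALOX5, the first enzyme of leukotriene synthesis, rose 2.55-fold from 29.0 ± 0.285 to 74.1 ± 1.40 CPM (adjusted p = 1.18e-17), and LTC4S rose 1.57-fold at about 1 to 2 CPM. ALOX15, the third that rose, had 5 and 1 reads in shControl and 14 and 13 in shp63. ALOX5AP, whose protein presents arachidonate to ALOX5, had 66 and 52 against 59 and 48 reads (adjusted p = 0.852). CYP4F3 and CYP4F2, closely related hydroxylases that inactivate leukotriene B4, fell 9.63-fold and 9.18-fold, CYP4F3 from 2607 and 2705 reads to 245 and 271. LTA4H fell 1.32-fold. In the epoxygenase branch CYP2J2 rose 1.96-fold, and the hydrolase genes EPHX1 and EPHX2 were not called.

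**Figure D4:**
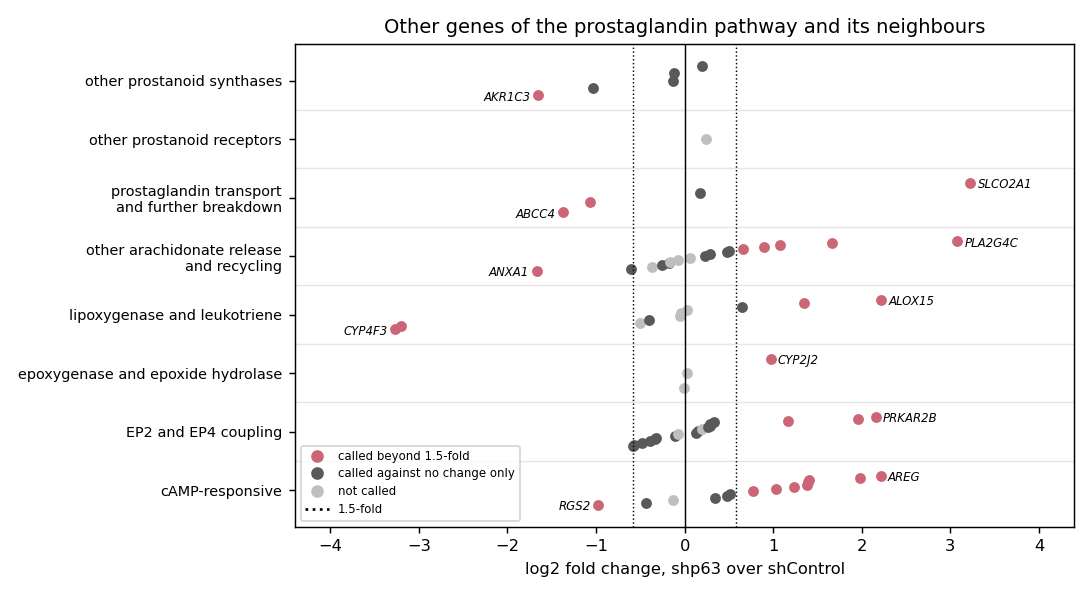
Log2 fold change (shp63 over shControl) of the tested genes of each other list, 1 point per gene, with dotted lines at 1.5-fold and a name at the gene of largest size beyond 1.5-fold in each direction. Points of most lists fall on both sides of 0, while 11 of 14 cyclic AMP-responsive genes rose, beside 36.9% of all tested genes. The lists were chosen with earlier results of these data known.

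EP2 and EP4 act through the G protein Gs, adenylyl cyclases and protein kinase A. Of 18 genes for this coupling, all tested, 9 rose, 7 fell and 2 were not called, beside 36.9% higher and 37.1% lower among all tested genes (median log2 fold change 0.14). The 3 genes called beyond 1.5-fold were all higher, and 3 of 18 is a smaller share than the 22.7% of all tested genes. PRKAR2B, a regulatory subunit of protein kinase A, rose 4.46-fold from 1.24 ± 0.17 to 5.52 ± 0.0222 CPM. ARRB1, the adaptor beta-arrestin 1, rose 3.89-fold and the cyclase gene ADCY6 rose 2.24-fold from 94.9 ± 2.32 to 213 ± 7.54 CPM. The cyclase genes ADCY1 and ADCY7 fell 1.49-fold and 1.48-fold, and the subunit gene PRKAR2A fell 1.39-fold. The adjusted p was 2.25e-12 for PRKAR2B, 9.82e-17 for ARRB1 and 2.06e-18 for ADCY6.

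Of 14 tested genes known to respond to cyclic AMP, 11 rose, 2 fell and PER1 was not called, beside 36.9% higher and 37.1% lower among all tested genes. The median log2 fold change was 0.90 beside -0.01 over all tested genes. Beyond 1.5-fold 8 were higher and 1 lower, beside 12.7% and 10%. PER1, a circadian clock gene named after its values were seen, lay close to the threshold (log2 fold change -0.13, edgeR adjusted p = 0.0529) and was called lower under 5 of 11 alternatives, with adjusted p from 0.00358 to 0.466 over the 11. AREG, an EGF receptor ligand, had 24 and 21 reads in shControl and 95 and 101 in shp63, a 4.64-fold rise (adjusted p = 5.62e-09). The nuclear receptor genes NR4A2 and NR4A1 rose 3.95-fold and 2.65-fold, NR4A1 from 145 ± 12.4 to 385 ± 16.5 CPM. RGS2, a regulator of G protein signalling, fell 1.96-fold. PDE4B, a phosphodiesterase that degrades cyclic AMP, fell 1.35-fold from 5.19 ± 0.528 to 3.82 ± 0.136 CPM. Its relatives PDE4D and PDE4A, named after their values were seen, were more abundant and rose beyond 1.5-fold. PDE4D went from 132 ± 0.662 to 311 ± 3.58 CPM and PDE4A from 24.2 ± 0.814 to 41.4 ± 0.678 CPM. Many genes of this list are also immediate early genes with other inducers, and prostaglandin levels were not measured in these files.

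Some genes of this pathway are also made by blood, stromal or vascular cells, so markers of these were read in the same libraries. Of 15 leukocyte markers 8 were tested, of which 6 rose and 1 fell, beside 36.9% higher and 37.1% lower among all tested genes. The 1 that fell was ITGAM, from 41 and 35 reads in shControl to 15 and 13 in shp63. The summed level of the 15 markers went from 105 and 97.1 CPM in shControl to 295 and 300 CPM in shp63. Most of this sum came from S100A9 (71.3 ± 4.19 to 176 ± 6.31 CPM) and S100A8 (13.9 ± 0.252 to 37.6 ± 0.344 CPM), which squamous epithelium also makes. CD68 rose from 6.61 ± 0.516 to 31.6 ± 0.864 CPM, CSF1R from 1.99 ± 0.00463 to 6.84 ± 0.275 CPM, and LYZ from 1 and 1 to 33 and 21 reads. CD14 rose from 6.17 ± 0.435 to 43.9 ± 1.82 CPM, yet the pan-leukocyte gene PTPRC never exceeded 8 reads and CD163, TYROBP, AIF1 and MS4A1 had 0. Fibroblast markers summed to 97.3 and 102 CPM against 75.4 and 67.2 CPM, with 2 of 3 tested lower. Nearly all of this sum was COL1A1 (98.7 ± 3.66 to 70.7 ± 5.80 CPM), and the other fibroblast markers were each below 1 CPM. DCN was at 0 and VIM at 7 reads or fewer. Endothelial markers summed to 59.9 and 65.0 CPM against 191 and 190 CPM, mostly CDH5, with 2 of 3 tested higher. The other tested gene, VWF, fell 3.57-fold, from 267 and 242 to 62 and 71 reads. CLDN5 was at 0 and KDR and TIE1 at 1 read or none. Mesothelial markers summed to 334 and 361 CPM against 630 and 636 CPM, from MSLN and UPK3B, both higher, while WT1 and CALB2 had 8 reads or fewer and ITLN1 had 0. The part of the markers that rose in the changes of PTGS2, ALOX5 and the other genes was not tested.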

How the data were processed

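RNA from 4 H226 cultures, 2 per group, was analysed. Per the series' design text and the submitters' processing notes, the authors aligned reads to GRCh37 (hg19) with TopHat2 2.0.13 and counted them per gene with HTSeq 0.6.1. The deposited table gives unnormalized integer counts of reads for each gene symbol. The annotation and strand setting are not given in the sources used here.

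Counts were tested with edgeR 4.0.16 (R 4.3.3): filterByExpr defaults (minimum count 10, minimum total 15; 14901 of 25369 genes kept), TMM factors, a robust quasi-likelihood fit with group as the only term, Benjamini-Hochberg adjustment over all tested genes, and glmTreat against 1.5-fold. Standard errors are the log2 fold change over the square root of F. The counts of replicate cultures differed by more than sampling noise (chi-square per degree of freedom 3.43 and 3.74), so each was kept. Their spread was still small, with a common biological coefficient of variation of 0.031 in the edgeR fit. The submitters call the cultures independent biological replicates. Gene positions and lengths come from GENCODE v44 lifted to GRCh37, and promoters from RefSeq (GRCh38.p14), where all 10 members matched.

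The members and lists were chosen with earlier results of these data known. All 10 members are given in full, with TP63 and, per other list, up to 3 called genes per direction of largest change with at least 1 CPM on average; any other gene was named after its values were seen. Alternatives were RLE factors, library totals, no filter, a filter of 1 CPM in 2 libraries, DESeq2 1.42.0, a replicate block and each library left out.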

Additional observations from a re-analysis of the deposited data

How the results depend on the processing

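Over 11 alternatives, 8 of the 9 tested prostaglandin genes kept their direction and their side of the threshold against no change, and so did TP63. PTGS2 ranged from 2.58 to 2.76 on the log2 scale, PTGES from 1.94 to 2.05, HPGD from -2.01 to -1.68 and PTGER4 from -1.53 to -1.10. PTGES2 is the exception: its log2 fold change was -0.13 with library totals alone, where it was called lower (adjusted p = 0.0157). It ranged from -0.097 to 0.012 with 1 library left out, called lower without shp63 replicate 1 (adjusted p = 0.0449) and with its sign turned without shp63 replicate 2 (adjusted p = 0.848). Of the 9 tested prostaglandin genes, 2 were called lower beyond 1.5-fold in the main fit. That number was 1 with DESeq2, where PTGER4 was lost, and 3 with library totals alone, where PTGES3 was gained. The log2 fold change of PTGER4 was -1.10 without shp63 replicate 1, and that of PTGES3 was -0.65 without shp63 replicate 2. Library totals alone lowered the median of all genes to -0.10, as that setting lacks the composition factor. With the replicate number as a block, 8 of 9 prostaglandin genes were called as before and 10858 genes in all; the correlation of same-numbered deviations was -0.11, and the crossed pairing, added after this was seen, called 8 and 11387. The labels give nothing else that would pair these cultures. Depth limits HPGD, PTGER4 and above all PTGER2.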

Other observations

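PTGFRN, a regulator of the prostaglandin F2 receptor that was on no list and was named after its values were seen, had 10799 and 10382 reads in shControl and 18484 and 17607 in shp63. Both shp63 cultures were higher, at 355 and 351 CPM against 195 and 193 CPM, a 1.82-fold rise (edgeR adjusted p = 4.95e-17), beside 10 reads or fewer for the receptor gene PTGFR itself. PTGES3L, a gene related to PTGES3, had 25 and 23 reads in shControl and 40 and 46 in shp63 (edgeR adjusted p = 0.00265).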
